A study of Mus musculus with 6 samples.

Results

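The genes described here encode chaperones, the CCT chaperonin and the unfolded protein response (UPR), as RNA in liver sinusoidal endothelial cells (LSECs), the fenestrated cells that line the liver sinusoids. The 51 members were a list of gene symbols put forward by function, with the genotype contrast of these same libraries already in view, so the genotype differences below are a description and lend no independent support to any pattern. All 51 were among the 23282 rows of the count files (23238 distinct symbols), and all 51 passed the filter on low counts that left 11583 genes to test.

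Cells were compared between whole-body *Txnip-/-* mice on a C57BL/6J background and C57BL/6J wild-type (WT) mice, with 3 libraries per genotype. TXNIP, the protein missing in the knockout, binds and inhibits thioredoxin. LSECs were selected with anti-CD146 beads after collagenase perfusion of the liver. The sources used here do not give the age or sex of the mice, or whether RNA was taken before or after the selected cells were placed in culture. They also do not say whether each library came from a separate mouse, so the p values may measure technical spread. The labels were checked on *Txnip* itself, which had 269, 216 and 191 counts in knockout and 1901, 2019 and 1994 counts in WT replicates 1, 2 and 3.

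Cytosolic heat shock proteins refold or hold damaged proteins, and their genes are switched on by the transcription factor HSF1 when unfolded protein builds up. CCT, also called TRiC, is a double ring of related subunits that folds actin and tubulin. The UPR starts at the sensors IRE1, ATF6 and PERK in the endoplasmic reticulum (ER) membrane, which raise ER chaperones and degradation factors through XBP1 and ATF6 and slow translation while raising ATF4 and CHOP through PERK.

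The libraries held 9147764, 10193952 and 9632360 counts for *Txnip-/-* replicates 1, 2 and 3 and 9745357, 9951078 and 9699159 counts for the WT replicates. Each count stands for a read near the polyadenylated end of a transcript, and levels are given as CPM, the count scaled to library size with TMM factors. A floor of 3 counts equalled 0.286 to 0.335 CPM, for counting error only, as no molecular identifiers were named. A pair of WT libraries, replicates 1 and 2, lay apart from all others in the values that follow. *Rn45s*, the ribosomal RNA precursor, took 10.03% and 9.68% of their counts, against 17.8% in WT replicate 3 and 17.0%, 18.6% and 16.8% in the *Txnip-/-* libraries. The distance between count profiles, a chi-square divided by its degrees of freedom, was 3.93 for WT replicates 1 and 2 and was 36.9 and 40.0 from each of them to WT replicate 3. WT replicate 3 was closer to the *Txnip-/-* libraries, at 13.3, 13.9 and 17.2. These distances were taken on raw counts with *Rn45s* included, so they partly repeat its shares. They were not computed without *Rn45s*, so closeness in the other genes is not shown. Class medians are therefore also given against WT replicates 1 and 2 and against WT replicate 3, as are values of some genes.

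Across the whole group, RNA of chaperone and UPR genes differed little between genotypes. The 51 members together made up 1.55%, 1.51% and 1.62% of all counts for *Txnip-/-* LSECs and 1.59%, 1.62% and 1.39% for WT LSECs. The genotypes overlapped and WT replicate 3 was lowest. With *Rn45s* left out of the total, a step chosen after seeing the data, the shares were 1.87%, 1.85% and 1.95% against 1.77%, 1.79% and 1.70%, without overlap. The mean over members of log2 CPM, relative to the mean of the 6 libraries, did not overlap either, at 0.077, 0.066 and 0.035 in *Txnip-/-* replicates 1, 2 and 3 and -0.052, -0.035 and -0.091 in the WT replicates. With edgeR, 0 of 51 members passed an adjusted p under 0.05 and a fold above 1.3, beside 1.44% of all genes tested (0.509% higher and 0.932% lower in *Txnip-/-* LSECs). At an unadjusted p under 0.05, reached by 11.5% of all genes, there were 11 members, 10 higher and 1 lower in *Txnip-/-* LSECs, where the shares of all genes were 5.48% and 6.05%. DESeq2 and limma-trend each called 1 member, *Hspd1*, beside 2.18% and 1.48% of all genes. Each also had 11 members at an unadjusted p under 0.05, beside 11.3% and 11.9% of all genes. Without normalization factors 4 were higher and 1 lower at that p, beside 12.8% of all genes in either direction. Leaving out each library in turn gave 5 to 11 higher and 0 to 1 lower, beside 7.92% to 14.2% of all genes. The fewest were higher without *Txnip-/-* replicate 3. The genotypes did not overlap for 12 members (17.4% of all genes), 11 higher and 1 lower in *Txnip-/-* LSECs, beside 8.43% and 8.94% of all genes. The median log2 difference between *Txnip-/-* and WT LSECs was 0.086 over the members and -0.000028 over all genes tested, with 37 members above 0 and 14 below. Without normalization factors 25 members were above 0, and the median over all genes was -0.082. Leaving out *Rn45s* before that step, an alternative chosen after seeing the data, brought 37 members above 0 again.

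For most members the interval of the difference was narrow, but like the p values it may measure technical spread. The median standard error of the log2 difference was 0.103 for the members and 0.190 for all genes tested. The 95% interval of the fold lay within 1.3-fold in either direction for 31 of 51 members, beside 22.5% of all genes, and within 2-fold for 49. The exceptions to the 2-fold bound were *Hspb8* and *Ern1*, which had few counts. Mean levels of members ran from 3.75 CPM for *Hspb8* to 3211 CPM for *Hsp90ab1*. As the counts do not grow with transcript length, these levels were compared without dividing by length.

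**Figure D1:**
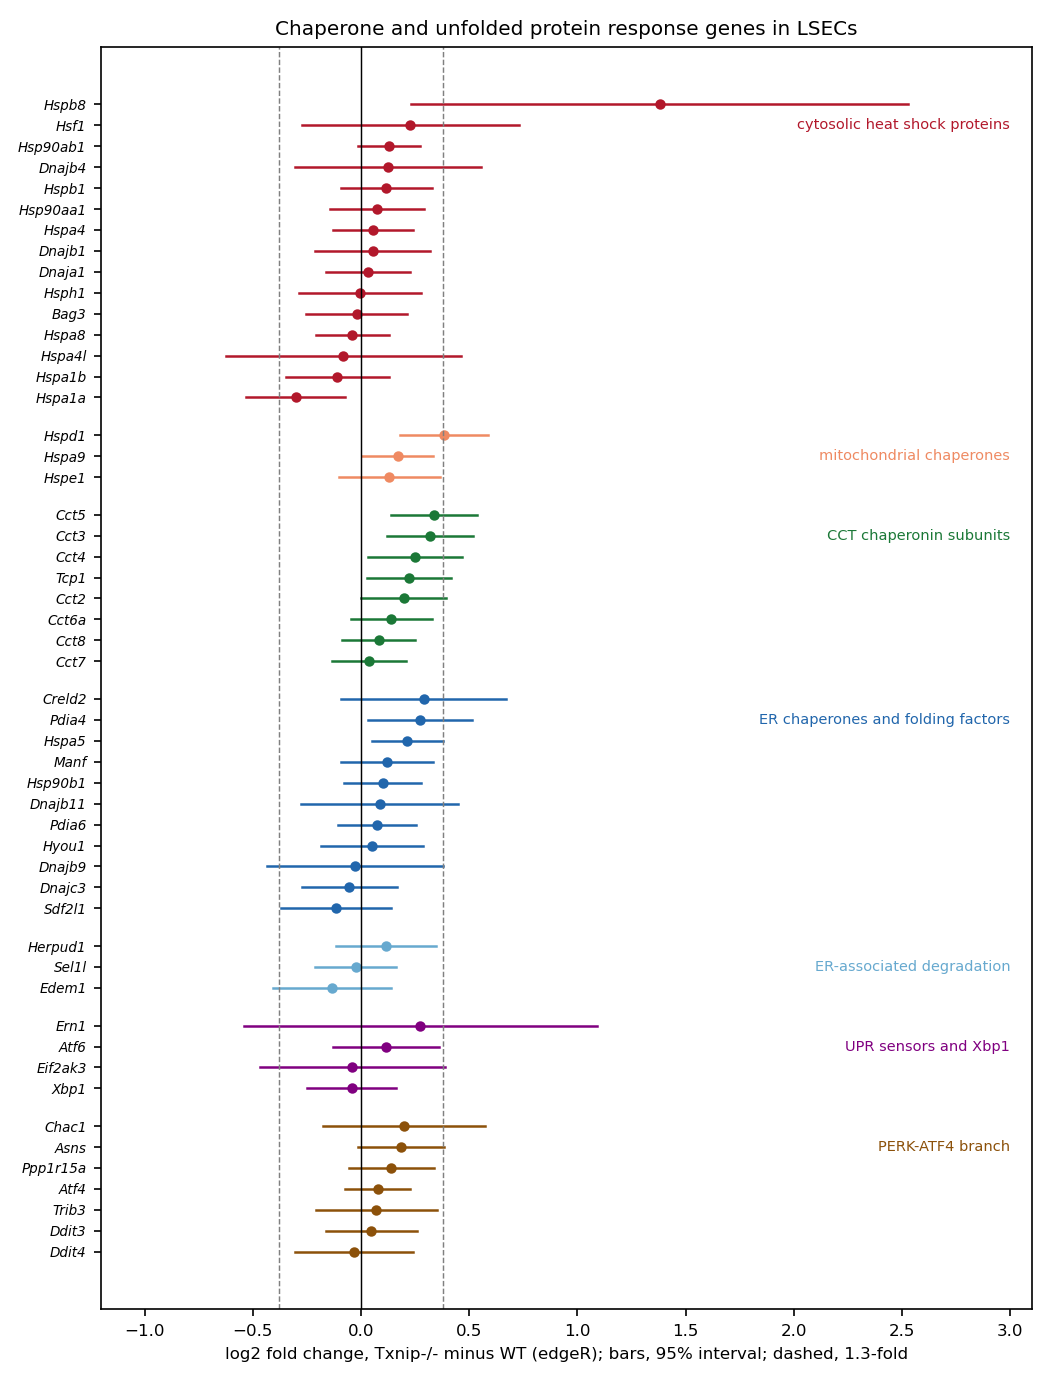
Log2 difference between *Txnip-/-* and WT LSECs for each of the 51 members, grouped by role (points, edgeR estimates; bars, 95% intervals; dashed lines, 1.3-fold in either direction; n = 3 libraries per genotype). All 8 CCT subunits lie to the right of 0, while without normalization factors 6 of 8 do; *Hspb8* has the widest interval, from 0.23 to 2.53.

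By role, the CCT subunits had the highest median log2 difference from all 3 WT libraries, at 0.21, followed by the mitochondrial chaperones at 0.17, the ER chaperones at 0.086, the PERK-ATF4 branch at 0.077, the cytosolic heat shock proteins at 0.054, the UPR sensors with *Xbp1* at 0.038 and ER-associated degradation at -0.025. The first 2 changed places when the WT libraries were taken apart. The mitochondrial and CCT medians were 0.25 and 0.18 against WT replicates 1 and 2, and 0.22 and 0.21 against WT replicate 3. Without normalization factors the order of the first 3 was the same, at 0.13, 0.086 and -0.0054, and the medians of the PERK-ATF4 branch, the cytosolic heat shock proteins, the UPR sensors with *Xbp1* and ER-associated degradation were -0.0071, -0.030, -0.043 and -0.11. A class level was also taken in each library as the mean over genes of log2 CPM, relative to the mean of the 6 libraries. For the CCT class this level was 0.098, 0.13 and 0.072 in *Txnip-/-* replicates 1, 2 and 3 and -0.081, -0.10 and -0.11 in the WT replicates. The genotypes were apart, and WT replicate 3 lay with the other WT libraries. For the cytosolic heat shock proteins the level was 0.055, 0.082 and 0.038 in *Txnip-/-* LSECs and 0.0029, 0.027 and -0.20 in WT LSECs. The genotypes did not overlap in this mean, but WT replicate 3 was far below the rest. Both features include *Hspb8*, the 1 gene of 15 with all *Txnip-/-* libraries above all WT libraries. Its log2 difference was 1.38, beside the class median of 0.054. It had 6 counts in WT replicate 3, where its log2 CPM differed by -1.83 from WT replicates 1 and 2. The level without *Hspb8* was not computed, so a separation is not shown for the other genes as a set. Against WT replicates 1 and 2 alone the median difference was -0.0059, with 6 of 15 genes higher in *Txnip-/-* LSECs. For the ER chaperones the level was 0.058, 0.049 and 0.041 in *Txnip-/-* LSECs and -0.041, 0.0025 and -0.11 in WT LSECs, again without overlap and with WT replicate 3 lowest. For the mitochondrial chaperones the level was 0.16, 0.043 and 0.15 in *Txnip-/-* LSECs and -0.084, -0.15 and -0.11 in WT LSECs, without overlap. The genotypes overlapped for the UPR sensors, for ER-associated degradation and for the PERK-ATF4 branch.

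The gap between WT replicate 3 and the mean of WT replicates 1 and 2 was larger than the genotype difference for 34 of 51 members, or 66.7%, beside 60.2% of all genes tested. This held for 12 of 15 cytosolic heat shock genes, 9 of 11 ER chaperones, 5 of 7 genes of the PERK-ATF4 branch, 4 of 4 UPR sensors and *Xbp1*, and 3 of 3 ER-associated degradation genes. It held for 1 of 3 mitochondrial chaperones and 0 of 8 CCT subunits. The gap sets 1 library against a mean of 2, while the genotype difference sets means of 3 against each other. Spread between libraries alone therefore makes the gap the larger more often, so these counts do not show an effect of WT library above that of genotype. The median difference in log2 CPM of the *Txnip-/-* mean from WT replicates 1 and 2 and from WT replicate 3 was, in that order, 0.10 (36 of 51 higher) and 0.10 (33 of 51) over all members and 0.18 (8 of 8 higher) and 0.21 (8 of 8) for the CCT subunits. It was 0.25 (3 of 3 higher) and 0.22 (2 of 3) for the mitochondrial chaperones, 0.090 (7 of 11 higher) and 0.16 (8 of 11) for the ER chaperones and -0.0059 (6 of 15 higher) and 0.10 (10 of 15) for the cytosolic heat shock proteins. For the PERK-ATF4 branch it was 0.12 (7 of 7 higher) and -0.0011 (3 of 7), for the UPR sensors with *Xbp1* 0.061 (4 of 4 higher) and -0.037 (2 of 4) and for ER-associated degradation -0.0036 (1 of 3 higher) and -0.067 (0 of 3).

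**Figure D2:**
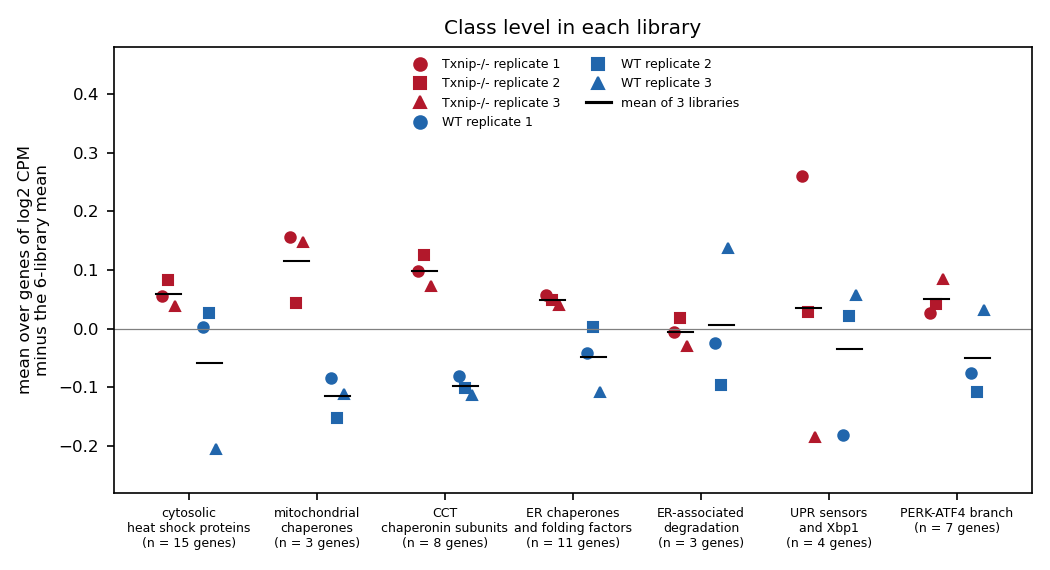
Level of each class in each library, as the mean over its genes of log2 CPM minus the mean of the 6 libraries (red, *Txnip-/-*; blue, WT; circles, squares and triangles, replicates 1, 2 and 3; bars, mean of 3 libraries). With TMM scaling all *Txnip-/-* libraries lie above all WT libraries for the CCT, mitochondrial, cytosolic and ER chaperone classes, while without normalization factors the class median turned to -0.030 for the cytosolic and -0.0054 for the ER class. In the cytosolic class 1 gene of 15, *Hspb8*, has all *Txnip-/-* libraries above all WT libraries, and it has few counts. WT replicate 3 is lowest for the cytosolic heat shock proteins, at -0.20. This mean includes *Hspb8*, with 6 counts in that library and a log2 CPM difference of -1.83 from WT replicates 1 and 2. The cytosolic level without *Hspb8* was not computed.

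Among the cytosolic heat shock proteins, the stress-inducible HSP70 gene *Hspa1a* was the 1 member with an unadjusted p under 0.05 and a lower value in *Txnip-/-* LSECs. *Hspa1a* (chr17:34969190-34972156, minus strand; GENCODE M21 coordinates, build GRCm38) was at 101, 91.0 and 81.1 CPM in *Txnip-/-* replicates 1, 2 and 3 and at 119, 109 and 108 CPM in the WT replicates. Every *Txnip-/-* library was below every WT library. Its log2 difference was -0.30 ± 0.11 (SE, n = 3 libraries per genotype; adjusted p = 0.260), and the unadjusted p was above 0.05 without *Txnip-/-* replicate 3, without WT replicate 1, with the term for WT replicates 1 and 2 and with WT replicate 3 as the single WT library. *Hspa1b*, the neighbouring copy that encodes a near-identical protein (chr17:34956436-34959238, minus strand), was at 84.4, 110.5 and 89.4 CPM in *Txnip-/-* replicates 1, 2 and 3 and at 101, 99.7 and 106 CPM in the WT replicates. Its genotypes overlapped, since *Txnip-/-* replicate 2 was the highest of all libraries, and the log2 difference was -0.11 ± 0.11 (adjusted p = 0.803). The last 500 bases of the annotated *Hspa1a* and *Hspa1b* transcripts shared no run of 75 bases, the read length, with each other or with another annotated gene, so reads from there can be told apart.

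*Hspa8*, the constitutive HSP70 that serves most folding in unstressed cells, had 710.0, 719.9 and 762 CPM in *Txnip-/-* and 798, 766 and 690.2 CPM in WT replicates 1, 2 and 3. The libraries overlapped, and the log2 difference was -0.040 ± 0.079 (adjusted p = 0.911). These counts are uncertain, since 83.8% of the 75-base windows in the last 500 bases of *Hspa8* also occurred in other annotated genes, *Gm26825* foremost. *Hsp90ab1*, the constitutive cytosolic HSP90, had 3268, 3197 and 3595 CPM in *Txnip-/-* and 3079, 3199 and 2929 CPM in WT replicates 1, 2 and 3. *Txnip-/-* replicates 1 and 2 were close to WT replicate 2, *Txnip-/-* replicate 3 was the highest, and the log2 difference was 0.13 ± 0.068 (adjusted p = 0.494). At its end 2.35% of the windows recur in *Gm6368*. *Hsf1*, which encodes the heat shock transcription factor, had 18.2, 19.4 and 11.2 CPM in *Txnip-/-* and 15.2, 14.3 and 12.2 CPM in WT replicates 1, 2 and 3, with *Txnip-/-* replicate 3 the lowest of all, and a log2 difference of 0.23 ± 0.24 (adjusted p = 0.802).

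*Hspb8*, a small heat shock protein that works with BAG3 in selective autophagy, had the largest log2 difference of the class. It was at 4.24, 6.93 and 5.13 CPM in *Txnip-/-* replicates 1, 2 and 3 and at 2.53, 3.05 and 0.635 CPM in the WT replicates, from 38, 68 and 48 counts in *Txnip-/-* LSECs and 26, 32 and 6 counts in WT LSECs. All *Txnip-/-* libraries were above all WT libraries, and WT replicate 3 was close to the floor. The log2 difference was 1.38 ± 0.54 (SE, n = 3 libraries per genotype; adjusted p = 0.308). It was 0.96 without WT replicate 3, and over all alternatives it reached 3.07. Its partner *Bag3* had a mean of 66.4 ± 0.774 CPM in *Txnip-/-* and 67.3 ± 3.34 CPM in WT LSECs (SD, n = 3). The log2 differences of the other 9 genes, *Bag3* included, ran from -0.081 for *Hspa4l* to 0.12 for *Dnajb4*, and their genotypes overlapped. The HSF1 targets *Hsph1*, *Dnajb1* and *Hsp90aa1* were among them, at -0.0051, 0.054 and 0.074. *Dnaja1* and *Hspb1* are uncertain, since all windows at the end of *Dnaja1* lie on exons of *Smu1* on the opposite strand and 10.3% of those of *Hspb1* recur in *Hsp25-ps1*, and the use of strand in counting was not stated.

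The mitochondrial chaperones included the member nearest to the threshold. *Hspd1* (chr1:55077835-55088243, minus strand), which encodes the HSP60 ring of the mitochondrial matrix, was at 214, 196 and 216 CPM in *Txnip-/-* replicates 1, 2 and 3 and at 172, 164 and 143 CPM in the WT replicates. All *Txnip-/-* libraries were above all WT libraries, and WT replicate 3 was the lowest. The fold was 1.31 and the log2 difference 0.38 ± 0.10 (SE, n = 3 libraries per genotype; adjusted p = 0.0577), with a 95% interval of 0.18 to 0.59. DESeq2 gave an adjusted p of 0.00896 and limma-trend 0.0482, both with a fold above 1.3, and over all alternatives the adjusted p ran from 0.00896 to 0.243. The log2 difference was 0.31 (adjusted p = 0.0639) without WT replicate 3 and 0.54 (adjusted p = 0.0517) with WT replicate 3 as the single WT library, which is assumed to vary like the *Txnip-/-* group.

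*Hspa9*, the mitochondrial HSP70 that drives import, had 578, 557 and 602 CPM in *Txnip-/-* and 539, 509 and 496 CPM in WT replicates 1, 2 and 3. The genotypes did not overlap, and the log2 difference was 0.17 ± 0.078 (adjusted p = 0.416). *Hspe1*, the HSP10 lid of the HSP60 ring, had 119.9, 108 and 112 CPM in *Txnip-/-* and 97.0, 93.7 and 119.5 CPM in WT replicates 1, 2 and 3. WT replicate 3 was level with the highest *Txnip-/-* library and the other WT libraries were below all *Txnip-/-* libraries. Its log2 difference was 0.13 ± 0.11 (adjusted p = 0.731), and it was 0.25 (adjusted p = 0.263) without WT replicate 3. The counts of *Hspe1* are uncertain, since 39.0% of the windows at its end recur in pseudogenes.

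All 8 CCT subunits had a higher mean in *Txnip-/-* LSECs, 5 of them with an unadjusted p under 0.05 and 6 with genotypes that did not overlap, beside 5.48% and 8.43% of all genes. Without normalization factors 6 of 8 were higher and 2 had an unadjusted p under 0.05, beside 12.8% of all genes. Without WT replicate 1, 7 of 8 were higher. Leaving out each library in turn gave 2 to 5 at that p, fewest without *Txnip-/-* replicate 2, beside 7.92% to 14.2% of all genes. The replicate block gave 3, beside 9.88% of all genes, as did the term for WT replicates 1 and 2, beside 14.3%. Their log2 differences ran from 0.036 for *Cct7* to 0.34 for *Cct5*, which is 1.03-fold to 1.26-fold, and 0 of 8 passed the adjusted threshold with edgeR. DESeq2 gave adjusted p of 0.0277 for *Cct5* and 0.0399 for *Cct3*, with folds below 1.3, and limma-trend gave 0.0911 and 0.109. *Cct5* (chr15:31590800-31601804, minus strand) was at 198, 177 and 193 CPM in *Txnip-/-* replicates 1, 2 and 3 and at 154, 157 and 139 CPM in the WT replicates. Its lowest *Txnip-/-* library lay above its highest WT library, and the log2 difference was 0.34 ± 0.094 (SE, n = 3 libraries per genotype; adjusted p = 0.102). *Cct3* (chr3:88297116-88321767, plus strand) was at 237, 243 and 217 CPM in *Txnip-/-* replicates 1, 2 and 3 and at 173, 183 and 203 CPM in the WT replicates. Here WT replicate 3 was the highest of the WT libraries and still below all *Txnip-/-* libraries. The log2 difference was 0.32 ± 0.094 (adjusted p = 0.127), and *Cct3* passed both thresholds without WT replicate 3, at 0.38 (adjusted p = 0.0176), while with that library as the single WT library it was 0.20 (adjusted p = 0.670). *Cct4* had 166, 174 and 141 CPM in *Txnip-/-* and 140.4, 138 and 126 CPM in WT replicates 1, 2 and 3. The nearest pair, *Txnip-/-* replicate 3 and WT replicate 1, was close to equal, and the log2 difference was 0.25 ± 0.10 (adjusted p = 0.340).

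The other subunits had smaller or less certain differences. *Tcp1*, the alpha subunit, and *Cct2* had log2 differences of 0.22 ± 0.092 (adjusted p = 0.342) and 0.20 ± 0.093 (adjusted p = 0.430), with all *Txnip-/-* libraries above all WT libraries. *Cct8*, at 0.081 ± 0.080 (adjusted p = 0.785), also did not overlap, with 348 ± 2.71 CPM in *Txnip-/-* and 329 ± 8.94 CPM in WT LSECs (SD, n = 3). *Cct6a* and *Cct7* overlapped, at 0.14 and 0.036. The end of *Cct6a* was not searched for shared windows. The end of *Tcp1* overlaps *Acat3* and that of *Cct8* overlaps *Usp16*, both on the opposite strand, over 44.8% and 27.7% of the windows, so counts made without regard to strand would include reads of those genes. The 8 genes lie on 8 different chromosomes.

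**Figure D3:**
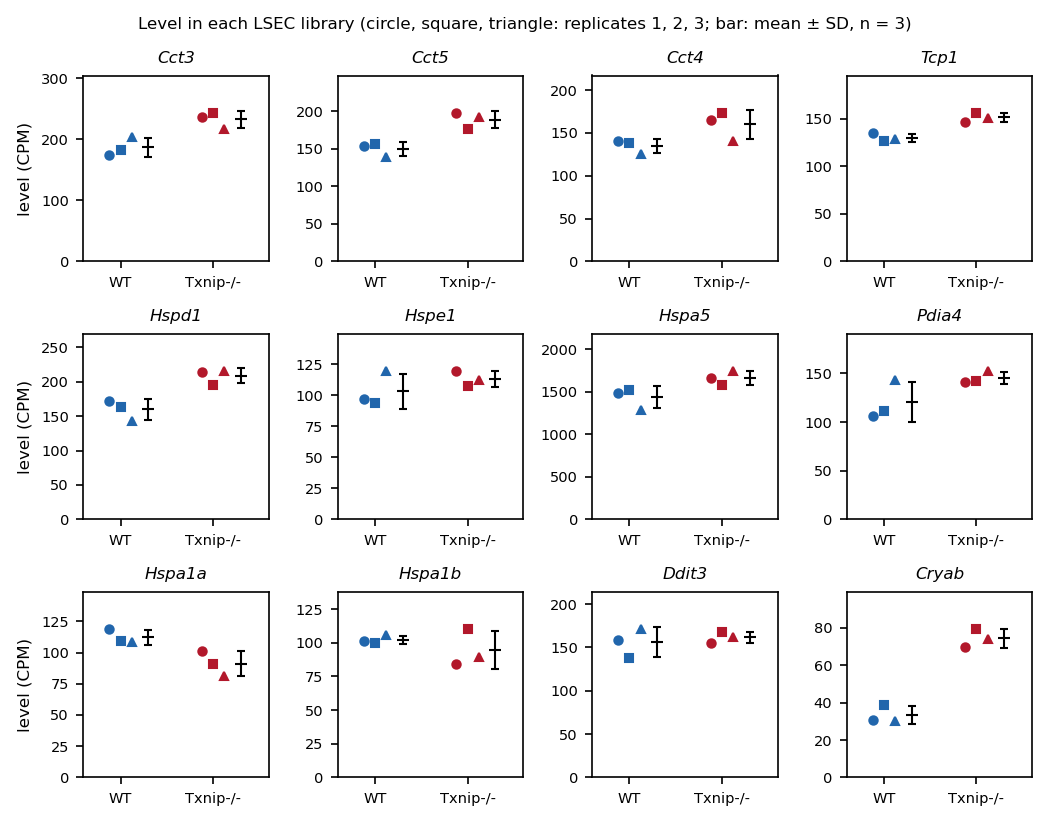
Level in CPM of 12 genes in each library (blue, WT; red, *Txnip-/-*; circles, squares and triangles, replicates 1, 2 and 3; black bars, mean ± SD, n = 3). *Cryab* has the widest separation, *Cct3*, *Cct5*, *Hspd1* and *Hspa5* are apart by less, and *Hspa1b* and *Ddit3* overlap.

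The ER chaperones differed by at most 1.22-fold between genotype means, with 8 of 11 higher and 3 lower in *Txnip-/-* LSECs (5 of 11 higher without normalization factors) and 2, both higher, with an unadjusted p under 0.05, beside 5.48% of all genes. This count fell to 0 without normalization factors and without *Txnip-/-* replicate 3, beside 12.8% and 10.9% of all genes in either direction. *Hspa5* (chr2:34771970-34777547, plus strand), which encodes BiP, the ER HSP70 that also holds the UPR sensors inactive, was at 1665, 1584 and 1751 CPM in *Txnip-/-* replicates 1, 2 and 3 and at 1493, 1527 and 1291 CPM in the WT replicates. All *Txnip-/-* libraries were above all WT libraries, and WT replicate 3 was the lowest. The log2 difference was 0.21 ± 0.078 (SE, n = 3 libraries per genotype; adjusted p = 0.267), or 1.16-fold. It was 0.14 (adjusted p = 0.233) without WT replicate 3 and 0.37 (adjusted p = 0.0169) with WT replicate 3 as the single WT library, below 1.3-fold in both, so its size depended on which WT libraries were used.

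*Pdia4*, a protein disulfide isomerase, was at 141, 142 and 153 CPM in *Txnip-/-* replicates 1, 2 and 3 and at 106, 111 and 144 CPM in the WT replicates. WT replicate 3 reached the *Txnip-/-* libraries and the other WT libraries were below. The log2 difference was 0.27 ± 0.11 (SE, n = 3 libraries per genotype; adjusted p = 0.348). Without WT replicate 3 it passed both thresholds, at 0.42 (adjusted p = 0.0189), and with that library as the single WT library it was 0.018 (adjusted p = 0.985). *Creld2*, an ER-resident target of ATF6, had 28.4, 28.6 and 21.9 CPM in *Txnip-/-* and 24.6, 20.8 and 19.1 CPM in WT replicates 1, 2 and 3. *Txnip-/-* replicate 3 fell among the WT libraries, and the log2 difference was 0.29 ± 0.18 (adjusted p = 0.595).

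The other 8 ER chaperones had log2 differences between -0.11 for *Sdf2l1* and 0.12 for *Manf*, and their genotypes overlapped. *Hsp90b1*, the ER HSP90 also called GRP94, was at 840.0 ± 56.1 CPM in *Txnip-/-* and 784 ± 67.6 CPM in WT LSECs (SD, n = 3). *Dnajb9*, a sensitive target of spliced XBP1, was at 21.3 ± 1.61 CPM in *Txnip-/-* and 21.7 ± 4.64 CPM in WT LSECs. Reads at the ends of *Hsp90b1*, *Pdia6* and *Manf* may include those of overlapping genes, *Gm15344* and *1810014B01Rik*, *Atp6v1c2*, and *Rbm15b* respectively.

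ER-associated degradation, which returns misfolded proteins to the cytosol, was read from *Herpud1*, *Edem1* and *Sel1l*, and 0 of 3 had an unadjusted p under 0.05, beside 11.5% of all genes. *Herpud1*, a stress-induced scaffold of the ligase complex, had 103, 95.3 and 103 CPM in *Txnip-/-* and 87.3, 86.0 and 105 CPM in WT replicates 1, 2 and 3. *Edem1*, which marks glycoproteins for disposal, had 51.4, 55.7 and 47.6 CPM in *Txnip-/-* and 55.1, 51.1 and 63.4 CPM in WT replicates 1, 2 and 3. *Sel1l*, the adaptor of the ligase, had 181, 190.3 and 187 CPM in *Txnip-/-* and 192, 181 and 195 CPM in WT replicates 1, 2 and 3. WT replicate 3 was the highest of all libraries for each of these genes. The log2 differences were 0.12 ± 0.11 (adjusted p = 0.769), -0.13 ± 0.13 (adjusted p = 0.785) and -0.025 ± 0.088 (adjusted p = 0.949).

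The UPR sensors and *Xbp1* did not separate the genotypes in any of the 4 genes, where 17.4% of all genes did. *Atf6*, which is cleaved to a transcription factor, had 98.4, 96.9 and 81.9 CPM in *Txnip-/-* and 84.1, 95.3 and 76.3 CPM in WT replicates 1, 2 and 3, and *Ern1*, which encodes the IRE1 kinase and RNase, had 9.38, 5.40 and 4.60 CPM in *Txnip-/-* and 3.60, 6.48 and 5.92 CPM in WT replicates 1, 2 and 3. *Eif2ak3*, the gene of the PERK kinase, had 21.6, 21.4 and 15.8 CPM in *Txnip-/-* and 20.1, 16.8 and 23.7 CPM in WT replicates 1, 2 and 3. *Xbp1*, whose RNA is spliced by IRE1, had 121, 111 and 114 CPM in *Txnip-/-* and 112, 118 and 126 CPM in WT replicates 1, 2 and 3. *Txnip-/-* libraries lay both above and below WT libraries in each case. The log2 differences were 0.12 ± 0.12 (adjusted p = 0.791), 0.27 ± 0.39 (adjusted p = 0.872), -0.041 ± 0.20 (adjusted p = 0.964) and -0.043 ± 0.10 (adjusted p = 0.921). Counts near the transcript end do not show whether *Xbp1* RNA was spliced, nor do they measure phosphorylation or cleavage of the sensors.

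In the PERK-ATF4 branch, *Atf4*, the transcription factor translated when PERK is active, had 1752, 1719 and 1833 CPM in *Txnip-/-* and 1663, 1792 and 1573 CPM in WT replicates 1, 2 and 3. *Ddit3*, which encodes the death-associated factor CHOP, had 155, 168 and 162 CPM in *Txnip-/-* and 159, 138 and 172 CPM in WT replicates 1, 2 and 3. The genotypes overlapped for both, with log2 differences of 0.077 ± 0.071 (adjusted p = 0.764) and 0.048 ± 0.10 (adjusted p = 0.912) and 95% intervals of -0.073 to 0.23 and -0.16 to 0.26. *Asns*, the asparagine synthetase raised by ATF4, was the 1 gene of 7 in the branch whose genotypes did not overlap, beside 17.4% of all genes. It was at 156, 165 and 171 CPM in *Txnip-/-* and 143, 154 and 136 CPM in WT replicates 1, 2 and 3. WT replicate 2 and *Txnip-/-* replicate 1 were nearly level, and the log2 difference was 0.19 ± 0.094 (adjusted p = 0.470).

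*Ppp1r15a*, also called GADD34, directs the phosphatase that ends the translation block. It had 319, 284 and 286 CPM in *Txnip-/-* and 255, 255 and 296 CPM in WT replicates 1, 2 and 3, with WT replicate 3 among the *Txnip-/-* libraries. *Chac1*, a glutathione-degrading enzyme raised by ATF4, had 24.1, 30.1 and 28.1 CPM in *Txnip-/-* and 26.7, 19.6 and 25.5 CPM in WT replicates 1, 2 and 3, and its genotypes overlapped. Their log2 differences were 0.14 ± 0.092 (adjusted p = 0.613) and 0.20 ± 0.18 (adjusted p = 0.750), and those of *Trib3* and *Ddit4* were 0.071 and -0.032. *Ddit3* and *Ppp1r15a* overlap *Mars* and *Tulp2* on the opposite strand at their ends, so their counts could include reads of those genes.

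Promoter sequence was read from the RefSeq promoters of GRCm38.p6, 250 bases before to 50 bases after each start, and 42 of 51 members had an entry. Members were listed by function as stress genes, so their matches to stress elements are not independent of that choice. The ER stress element, searched on both strands as CCAAT followed by CCACG after 9 bases of any kind, was found in the promoters of *Hspa5*, *Hsp90b1*, *Dnajc3*, *Pdia6* and *Creld2*, which is 5 of 9 ER chaperones with an entry, and in 0.119% of all 32851 promoters. It holds the NF-Y box CCAAT, which occurred in 9 of 9 ER chaperones and 37.4% of all promoters. Members are counted by gene, and by gene 0.137% of 27025 held the ER stress element and 41.1% the CCAAT box. The sites are shown because they hold the same fixed letters, as the search required, while the log2 differences of these genes ran from -0.054 for *Dnajc3* to 0.29 for *Creld2*. Capitals mark the fixed letters of the element, which lies on the opposite strand in *Creld2* and in the second *Hsp90b1* site. The *Hspa5* site lies before the RefSeq start but inside the annotated gene.
Hspa5, chr2:34772020-34772048, plus strand: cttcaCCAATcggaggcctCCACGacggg
Hsp90b1, chr10:86705633-86705661, minus strand: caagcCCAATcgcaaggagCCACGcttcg
Hsp90b1, chr10:86705528-86705556, minus strand: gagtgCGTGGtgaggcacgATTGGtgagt
Pdia6, chr12:17266486-17266514, plus strand: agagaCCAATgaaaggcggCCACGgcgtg
Dnajc3, chr14:118937822-118937850, plus strand: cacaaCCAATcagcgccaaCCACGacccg
Creld2, chr15:88819515-88819543, plus strand: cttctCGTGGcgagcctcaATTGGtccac

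The related ER stress element II, ATTGG and CCACG with 1 base between, was found in *Dnajb11* and *Herpud1* and in 0.0365% of all promoters, and the XBP1 and ATF6 core TGACGTGG in 0 of 42 members and 0.676% of all promoters. The C/EBP-ATF element TGATGNAA was found in *Asns*, *Chac1*, *Trib3* and *Herpud1* and in 3.97% of all promoters. In *Asns* its first base lay 23 bases before the RefSeq start, inside the annotated gene (chr6:7675169-7693254). *Asns* was the gene of the PERK-ATF4 branch whose genotypes did not overlap, beside 17.4% of all genes. *Chac1* and *Trib3* hold the same element, and their genotypes overlapped. In *Herpud1* the element lay on the opposite strand, upstream of the ER stress element II. Capitals mark the fixed letters of each element.
Asns, chr6:7693214-7693243, minus strand: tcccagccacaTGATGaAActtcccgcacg
Herpud1, chr8:94386306-94386335, plus strand: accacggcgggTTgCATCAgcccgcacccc
Herpud1, chr8:94386368-94386396, plus strand: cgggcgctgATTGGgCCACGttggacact

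The heat shock element, searched as GAA, TTC and GAA with 2 bases between each, was found in *Hsph1*, *Hspd1* and *Hspe1* and in 0.603% of all promoters. *Hspd1* and *Hspe1* lie on opposite strands, and the element was the same stretch of DNA for both. It lay 89 bases before the *Hspe1* start. For *Hspd1* it lay inside the annotated gene, 144 bases before the inner of 2 RefSeq starts, and the entry at the outer start did not hold it. It is shown because it is shared by the mitochondrial member nearest to the threshold and its partner, whose log2 differences were 0.38 and 0.13. Overlapping matches on both strands are in capitals.
Hspe1, chr1:55088053-55088082, plus strand: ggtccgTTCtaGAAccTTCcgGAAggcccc
No CCT subunit of the 7 with an entry held any of these elements other than the CCAAT box, which 4 held. Counted by gene, the shares were 0.0444% for the ER stress element II and 0.714% for the XBP1 and ATF6 core. They were 4.51% for the C/EBP-ATF element and 0.662% for the heat shock element. A match is a description of the letters and not of binding, and a promoter without one may hold other forms of the element.

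Among 153 other genes of the same pathways, listed by role, 147 were tested and 1 was called, *Cryab*, which rose in *Txnip-/-* LSECs. *Cryab* (chr9:50751325-50756636, plus strand), which encodes the small heat shock protein alpha B-crystallin, was at 69.6, 79.6 and 74.1 CPM in *Txnip-/-* replicates 1, 2 and 3 and at 30.9, 39.0 and 30.1 CPM in the WT replicates. The lowest *Txnip-/-* library was well above the highest WT library. The fold was 2.23 and the log2 difference 1.16 ± 0.14 (SE, n = 3 libraries per genotype; adjusted p = 7.05e-05), and leaving out each library in turn gave log2 differences of 1.09 to 1.29 with adjusted p of 8.03e-05 to 0.00250. The stellate cell marker *Dcn* also rose, with a fold of 1.99, and the part of stellate cell RNA in *Cryab* was not tested. At an unadjusted p under 0.05, 17 of the related genes were higher, *Cryab* included, and 3 were lower, where the shares of all genes were 5.48% and 6.05%, and the median log2 difference over the 147 was 0.078. Without normalization factors 6 were higher and 7 lower at that p, beside 12.8% of all genes in either direction, with a median of -0.0027. Leaving out each library in turn gave 8 to 20 higher and 2 to 9 lower, beside 7.92% to 14.2% of all genes.

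*Lonp1*, the protease of the mitochondrial matrix, was just outside the threshold with edgeR, like *Hspd1*. It had 112, 114 and 109.8 CPM in *Txnip-/-* and 87.5, 83.4 and 85.3 CPM in WT replicates 1, 2 and 3, with no overlap, and a log2 difference of 0.39 ± 0.10 (adjusted p = 0.0577). It was called with DESeq2 (adjusted p = 0.0120), with no filter on low counts (0.0460), with at least 10 counts in every library (0.0445) and without WT replicate 3 (0.0451), and not in the other alternatives. *Slc7a1*, a transporter of cationic amino acids in the integrated stress response list, had 148, 138 and 149 CPM in *Txnip-/-* and 115, 118 and 107 CPM in WT replicates 1, 2 and 3. Its genotypes did not overlap either, at 0.35 ± 0.10 (adjusted p = 0.0893). *Pfdn2*, of the prefoldin complex that hands substrates to CCT, had 62.5, 70.1 and 52.7 CPM in *Txnip-/-* and 53.7, 62.1 and 50.2 CPM in WT replicates 1, 2 and 3 and overlapped, at 0.16 ± 0.14 (adjusted p = 0.733). The 9 tested prefoldin and phosducin-like partners of CCT had a median log2 difference of 0.014, and 0 had an unadjusted p under 0.05, beside 11.5% of all genes. The end of *Pfdn2* overlaps *Klhdc9* on the opposite strand.

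In the ER lists the genes with the smallest p differed in direction. *Cnpy3*, a chaperone partner of GRP94 for Toll-like receptors, had 79.3, 86.4 and 77.9 CPM in *Txnip-/-* and 96.5, 99.1 and 114 CPM in WT replicates 1, 2 and 3. All *Txnip-/-* libraries were below all WT libraries, and the log2 difference was -0.34 ± 0.11 (adjusted p = 0.159). *Derl2*, of the retrotranslocation complex, had 79.6, 79.0 and 70.6 CPM in *Txnip-/-* and 59.4, 59.5 and 65.4 CPM in WT replicates 1, 2 and 3, and *Creb3l1*, an ER-bound transcription factor, had 80.6, 71.9 and 75.4 CPM in *Txnip-/-* and 68.0, 59.8 and 57.3 CPM in WT replicates 1, 2 and 3. Both were higher in all *Txnip-/-* libraries than in all WT libraries, at 0.31 ± 0.11 (adjusted p = 0.256) and 0.30 ± 0.12 (adjusted p = 0.303). The median log2 difference was 0.015 for the ER folding list, 0.015 for other ER-associated degradation and -0.031 for other ER stress transducers. It was 0.14 for cytosolic co-chaperones, 0.15 for other mitochondrial chaperones and proteases, and 0.13 for the integrated stress response.

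Immediate early genes, which respond to tissue dissociation as heat shock genes do, were read beside the members. Of 16 genes, 0 were called with edgeR and 1, *Junb*, was higher at an unadjusted p under 0.05, beside 5.48% of all genes. Their summed level was 2799, 2823 and 2649.8 CPM in *Txnip-/-* and 2666, 2668 and 2707 CPM in WT replicates 1, 2 and 3, with *Klf6* the most abundant at 1369, 1362 and 1300.2 CPM in *Txnip-/-* and 1369, 1366 and 1326 CPM in WT replicates 1, 2 and 3. The genotypes overlapped in both values.

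Marker genes of other liver cells moved with genotype. Of 12 Kupffer cell and macrophage markers 11 were tested, and 10 of these were called and fell in *Txnip-/-* LSECs (*Adgre1*, *Cd5l*, *Vsig4*, *Marco*, *C1qa*, *C1qb*, *C1qc*, *Cd163*, *Cd68* and *Lyz2*), with log2 differences from -2.07 to -0.75. *Clec4f* was also lower in all *Txnip-/-* libraries, and *Timd4* was below the filter. Their summed level was 303, 294 and 321 CPM in *Txnip-/-* and 740.1, 703 and 724 CPM in WT replicates 1, 2 and 3. The genotypes were far apart, and *Marco* was the most abundant, at 89.8, 75.6 and 84.1 CPM in *Txnip-/-* and 170.4, 178 and 176 CPM in WT replicates 1, 2 and 3. Fewer cells of a type and less RNA per cell cannot be told apart in these libraries, and the part of macrophage RNA in the differences of the members was not tested.

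LSEC markers summed to 3079.7, 3166 and 3586 CPM in *Txnip-/-* and 5387, 5714 and 3429 CPM in WT replicates 1, 2 and 3. The low sum of WT replicate 3 came from *Lyve1*, since without this gene the sums were 1605, 1524 and 1609 CPM in *Txnip-/-* and 1905, 1935 and 1909 CPM in WT replicates 1, 2 and 3. All 10 had a lower mean in *Txnip-/-* LSECs and 2 were called, *Stab1* at -0.46 ± 0.089 (adjusted p = 0.00984) and *Mrc1* at -0.76 ± 0.11 (adjusted p = 0.000718). The most abundant was *Lyve1*, at 1475, 1642 and 1976 CPM in *Txnip-/-* and 3482, 3779.9 and 1519.5 CPM in WT replicates 1, 2 and 3. The 7 pan-endothelial markers summed to 2850.0, 3104 and 2767 CPM in *Txnip-/-* and 3039.7, 2965 and 3509 CPM in WT replicates 1, 2 and 3, with *Cdh5* the most abundant at 1031, 1169 and 1007 CPM in *Txnip-/-* and 1087, 1005 and 1210.2 CPM in WT replicates 1, 2 and 3 and 0 called with edgeR. All 7 had a lower mean in *Txnip-/-* LSECs, and 3, *Eng*, *Erg* and *Tie1*, had an unadjusted p under 0.05, beside 6.05% of all genes lower at that p. These 3 did not overlap, at -0.33 ± 0.092 (adjusted p = 0.104), -0.36 ± 0.14 (adjusted p = 0.311) and -0.40 ± 0.11 (adjusted p = 0.0954).

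Hepatocyte markers summed to 44.0, 41.6 and 54.5 CPM in *Txnip-/-* and 38.9, 39.1 and 38.1 CPM in WT replicates 1, 2 and 3, with *Alb* the most abundant. Stellate cell markers summed to 38.1, 49.3 and 43.6 CPM in *Txnip-/-* and 25.2, 22.1 and 22.7 CPM in WT replicates 1, 2 and 3, and *Dcn*, the most abundant, was called and rose, at 27.6, 32.5 and 31.8 CPM in *Txnip-/-* and 17.1, 14.2 and 14.8 CPM in WT replicates 1, 2 and 3. Its log2 difference was 0.99 ± 0.18 (adjusted p = 0.00497). Neutrophil and lymphocyte markers were near 0, at most 1.53 and 0.641 CPM in sum, with *Ngp*, *Camp*, *Cd3e*, *Cd79b*, *Ms4a1* and *Nkg7* at 0 in every library, *S100a8* and *Cd79a* the most abundant and *Ly6g* not listed. Cholangiocyte markers summed to at most 6.25 CPM, with *Sox9* the most abundant. The part of hepatocyte and stellate cell RNA in the differences of the members and of *Cryab* was likewise not tested.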

How the data were processed

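RNA of LSECs was measured as 3 libraries per genotype. The authors aligned single-end QuantSeq 3′ reads of 75 bases, with Bowtie2, mm10 and bedtools named in the submitters' processing notes, and deposited whole-number counts by gene symbol that include multiply aligned reads. Neither the annotation nor the use of strand was stated. Reads of near-identical or overlapping genes can therefore be counted at more than 1 gene, so members with such 3′ ends are named. In R 4.3.3, edgeR 4.0.16 was run with filterByExpr, TMM, glmQLFit and glmQLFTest on genotype, with Benjamini-Hochberg adjustment over 11583 genes. Genes were called at an adjusted p under 0.05 with a fold above 1.3. Each standard error was the log2 fold change divided by the square root of F, and 95% intervals from the t distribution. Per-library class levels used log2 CPM with a prior count of 2. Members and lists were chosen with earlier results of these data known. Genes named with per-library values were members called, up to 3 members per class with the smallest p, a list of anchor genes, and from the related lists those called or with the smallest p of a list. Marker and immediate early genes were named if called or most abundant, and others were named for their place in a range or role after their values were seen. Alternatives were DESeq2 1.42.0, limma-trend (limma 3.58.1), other normalization factors and filters, a replicate block, each library left out, a term for WT replicates 1 and 2, WT replicate 3 as the single WT library, *Rn45s* left out, and no fold threshold. The tests were also run on simulated data. There edgeR called 34 of 97 genes changed 1.5-fold, 55 of 96 changed 2-fold and 6 unchanged genes.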

Additional observations from a re-analysis of the deposited data

How the results depend on the processing

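The direction of *Hspd1*, *Cct3*, *Cct5*, *Hspa5*, *Hspa1a* and *Cryab* was the same under every alternative run, and *Cryab* was called in each. RLE and upper-quartile factors and leaving out *Rn45s* kept 0 members called and 11 at an unadjusted p under 0.05, and dropping the fold threshold also gave 0 members. Without normalization factors 5 members had an unadjusted p under 0.05, beside 12.8% of all genes. Class medians were then 0.086 for mitochondrial chaperones, 0.13 for CCT, -0.0054 for ER chaperones and -0.0071 for the PERK-ATF4 branch. DESeq2 called 252 genes (2.18% of all genes), 1 member and 2 related genes. Limma-trend called 1 member, beside 1.48% of all genes. With no filter on low counts 301 genes and 2 related genes were called. With at least 10 counts in every library 1 member and 2 related genes were called, beside 1.69% of all genes, 50 members being tested. Pairing of libraries by replicate number was not shown. Deviations from the genotype mean correlated across genes at -0.030, 0.017 and -0.047 between libraries that share a number. With 3 libraries per genotype and counting noise in low genes, these values cannot decide whether libraries were paired. With the replicate block 108 genes and 0 members were called, with 8 members at an unadjusted p under 0.05, beside 9.88% of all genes. With a term for WT replicates 1 and 2, the genotype difference is that from WT replicate 3 alone, and spread comes from the other libraries. Medians were then 0.22 for mitochondrial chaperones, 0.16 for ER chaperones and 0.00083 for the PERK-ATF4 branch. This is therefore not separate from the next alternative. With WT replicate 3 as the single WT library 107 genes were called, and the same medians were 0.22, 0.16 and 0.0016. Leaving out each library in turn gave 89 to 301 genes called, 0 to 2 members called, 5 to 12 members at an unadjusted p under 0.05 (beside 7.92% to 14.2% of all genes), 15 to 21 members without overlap (with fewer libraries fewer values can overlap), 1 to 3 related genes called, and medians of 0.18 to 0.25 for CCT and 0.14 to 0.25 for mitochondrial chaperones. The share of all genes without overlap in these comparisons is not given, so the 15 to 21 members cannot be set against it. The highest counts were without WT replicate 3, and the cause of these shifts was not tested. *Hspb8* and *Ern1* had the largest standard errors of the members, at 6 to 68 and 37 to 84 counts. Low depth and spread between libraries were not separated.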

Other observations

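*Map3k5*, which encodes the kinase ASK1 that relays ER stress to JNK, was below the filter on low counts and had 0, 2 and 1 counts in *Txnip-/-* replicates 1, 2 and 3 and 19, 10 and 14 counts in the WT replicates. All *Txnip-/-* libraries were at or below 3 counts, the floor of detection, and all WT libraries were above it. It was singled out after its values were seen, and in the fits that kept it the adjusted p ran from 0.250 to 0.690.

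Genes of serine synthesis and glycine transport, which ATF4 can raise, were also singled out from the integrated stress response list after their values were seen. *Psat1*, a transaminase of serine synthesis, had 25.8, 23.1 and 25.9 CPM in *Txnip-/-* and 17.1, 19.3 and 17.5 CPM in WT replicates 1, 2 and 3. *Phgdh*, the first enzyme of that route, had 14.7, 14.2 and 12.9 CPM in *Txnip-/-* and 10.3, 11.0 and 8.36 CPM in WT replicates 1, 2 and 3. *Slc6a9*, a glycine transporter, had 14.0, 16.7 and 14.97 CPM in *Txnip-/-* and 8.96, 10.1 and 9.41 CPM in WT replicates 1, 2 and 3. For all of these the *Txnip-/-* libraries were above the WT libraries. The log2 differences were 0.47 ± 0.18 (adjusted p = 0.283), 0.50 ± 0.23 (adjusted p = 0.430) and 0.68 ± 0.23 (adjusted p = 0.200), so none passed the adjusted threshold. *Psph*, the last enzyme of serine synthesis, and *Shmt2*, which converts serine to glycine, overlapped, at 0.12 ± 0.21 (adjusted p = 0.899) and 0.19 ± 0.13 (adjusted p = 0.657). Of the 38 genes of this list that were tested, 32 had a higher mean in *Txnip-/-* LSECs, 6 with an unadjusted p under 0.05, beside 5791 of the 11583 genes tested and 5.48%, and 0 were called with edgeR. Without normalization factors 23 were higher, and leaving out each library in turn gave 2 to 11 with an unadjusted p under 0.05, beside 7.92% to 14.2% of all genes.

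In the list of other ER-associated degradation, *Ube2j1* and *Ube2g2*, ubiquitin-conjugating enzymes of the ER membrane route, had log2 differences of 0.28 ± 0.10 (adjusted p = 0.283) and 0.28 ± 0.10 (adjusted p = 0.259), with no overlap between genotypes. They were singled out after their values were seen, and 3 of the 16 tested genes of that list were higher at an unadjusted p under 0.05, beside 5.48% of all genes, while 8 of the 16 had a higher mean and 8 a lower mean, with a median log2 difference of 0.015.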
